A study of Mus musculus with 7 samples.

Results

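Growth hormone (Gh) and prolactin (Prl) transcripts were read in brain RNA of 7 male C57BL/6J mice aged 21 weeks, 3 of them homozygous for a knockout allele of Duf1220 (knockout) and 4 wild type, with 1 Illumina BeadArray per mouse. On such an array biotin-labelled cRNA binds to bead-borne DNA probes, and the brightness of a probe is its reading. The pair comprises every probe that the platform annotation assigns to Gh or Prl, which is 1 probe for each of the 2 genes among 16593 annotated genes. The pair was chosen by its readings on these same arrays, namely its levels, its joint variation and its difference between genotypes, which are therefore given as a description without a test. Duf1220 is a protein domain that the mouse encodes in Pde4dip. The labels describe the tissue as brain, without the limits of the dissection, and give the allele of the homozygous mice only as ko and that of the wild-type mice as C57BL/6J.

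Growth hormone and prolactin are secreted by the anterior pituitary, a gland that hangs beneath the hypothalamus on a stalk. Somatotrophs make the first and lactotrophs the second, and the transcription factor Pou1f1 switches on both genes, which descend from a common ancestor. Hypothalamic growth hormone-releasing hormone (Ghrh) stimulates somatotrophs and somatostatin (Sst) restrains them, while dopamine restrains lactotrophs. Both hormones act through cytokine receptors that signal by Jak2 and Stat5, and growth hormone drives production of insulin-like growth factor 1 (Igf1).

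The arrays carried 25697 probes, of which 12833 were tested because 3 or more arrays read them above 16. That floor stands clear of the noise around 0, where 90% of the negative readings were smaller in size than 4.19. Wild-type array 2 stood apart from the rest, with a mean correlation of 0.932 to the other arrays across tested probes, wild-type array 3 had 0.970, and the remaining arrays had 0.976 to 0.981. The brightest Pde4dip probe read 1233 to 1498 on the knockout arrays and 2157 to 2502 on the wild-type arrays, without overlap, a log2 difference of -0.71 (SE 0.15). Other Pde4dip probes differed by 0.01 (SE 0.20) and -0.35 (SE 0.30), so the check of the targeted gene depends on the probe. Of the brain markers, the neuronal genes Stmn2, Syt1 and Rbfox3 and the myelin gene Mbp were bright on every array, while the single probes for Snap25 and Nefl stayed below the floor.

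Gh read 157, 5.32 and 87.1 on knockout arrays 1, 2 and 3, against 351, 304, 4.97 and 1275 on wild-type arrays 1, 2, 3 and 4. The transcript was therefore at background in 1 brain of each genotype and clearly present in the other 5. Knockout arrays 1 and 3 lay below wild-type arrays 1, 2 and 4 and above wild-type array 3, so the groups overlapped.

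Prl followed the same layout, with 61.5, 3.56 and 47.7 on knockout arrays 1, 2 and 3, against 81.1, 106, 1.43 and 705 on wild-type arrays 1, 2, 3 and 4. The arrays below the floor were the same as for Gh, knockout array 2 and wild-type array 3, and wild-type array 4 was again far above the rest. From the highest to the lowest, the arrays stood in one order for both genes, except that wild-type arrays 1 and 2 changed places and that the 2 arrays below the floor have no order.

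**Figure D1:**
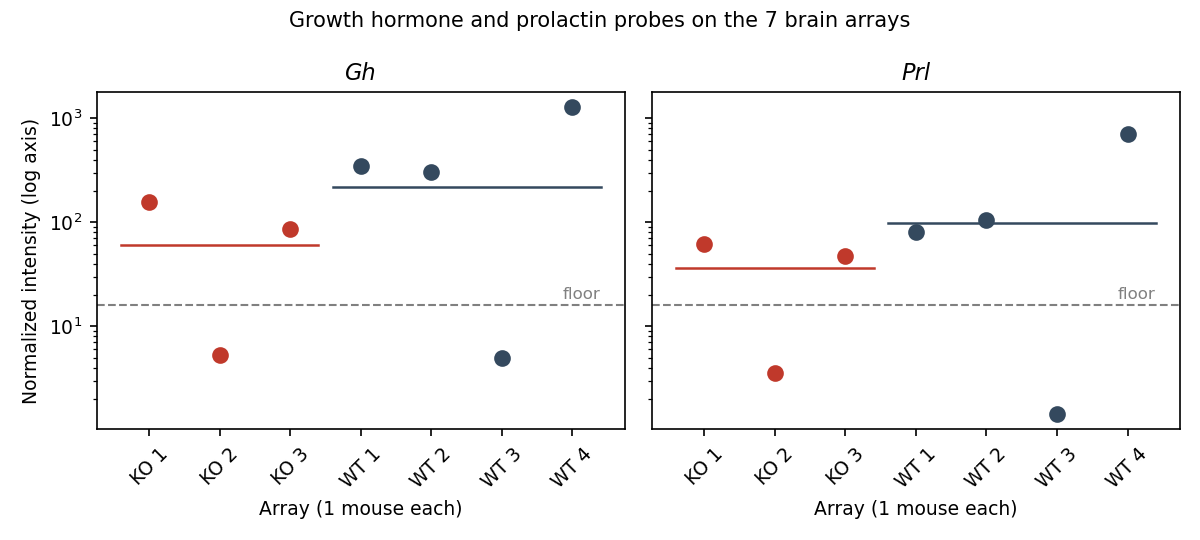
Normalized intensity (log axis) of the Gh probe (left) and the Prl probe (right) on each array, 1 mouse per point, knockout in red and wild type in dark blue. The horizontal lines are geometric means after readings under the dashed floor of 16 were set to 16. For both probes knockout array 2 and wild-type array 3 lie under the floor, and wild-type array 4 reads 1275 for Gh and 705 for Prl.

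For Gh the mean intensity was 83.3 ± 76.1 (SD, n = 3) in knockout and 484 ± 549 (SD, n = 4) in wild type. After readings under 16 were set to 16, the log2 level of Gh was 5.91 ± 1.71 (SD, n = 3) in knockout and 7.76 ± 2.67 (SD, n = 4) in wild type, a difference of -1.84. In each group the SD was close to or above the size of that difference. In bulk RNA fewer cells of a type and less RNA per cell cannot be told apart. The labels do not say whether the dissection kept the pituitary, and the share of that gland in each sample was not tested.

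For Prl the mean intensity was 37.6 ± 30.3 (SD, n = 3) in knockout and 223 ± 324 (SD, n = 4) in wild type. The log2 level of Prl was 5.17 ± 1.03 (SD, n = 3) in knockout and 6.63 ± 2.24 (SD, n = 4) in wild type, a difference of -1.46. The SD of Prl was below the size of that difference in knockout and above it in wild type. Neither probe was among those whose groups did not overlap, which made up 7.39% of all tested probes.

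Single arrays decided the size of both differences. Without wild-type array 4 the log2 difference was -0.99 for Gh and -0.52 for Prl. Without knockout array 2 it was -0.88 for Gh and -0.87 for Prl. Without wild-type array 3 it was -3.09 for Gh and -2.34 for Prl. The sign was negative each time, while the size of each difference varied more than 3 times. Leaving out wild-type arrays 2 and 3 together, the pair of arrays least like the others across all probes, gave -3.47 for Gh and -2.73 for Prl.

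The spread of Gh between brains was the largest on the array. Its log2 readings had an SD of 2.35 over the 7 arrays, rank 1 of 12833 tested probes, and Prl had an SD of 1.86, rank 6, against a median of 0.29 over all tested probes. The spread lay within the genotypes: the SD around the group means was 2.33 for Gh (rank 1) and 1.85 for Prl (rank 4). The brightest array exceeded the floor by 79.7-fold for Gh and 44.1-fold for Prl, which is the least by which it exceeded the arrays at background. Among the 5 arrays above the floor the highest was 14.6-fold above the lowest for Gh and 14.8-fold for Prl. The other 8 of the 10 probes with the largest spread were looked up after their values were seen. Of these, the probes for Pdpk1 (read by 2 probes), Cacna2d1, Cplx2, H2ac10, H2ac7 and H2ac15 were highest on wild-type array 2, and only Ccl21a was, like the pair, highest on wild-type array 4.

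**Figure D2:**
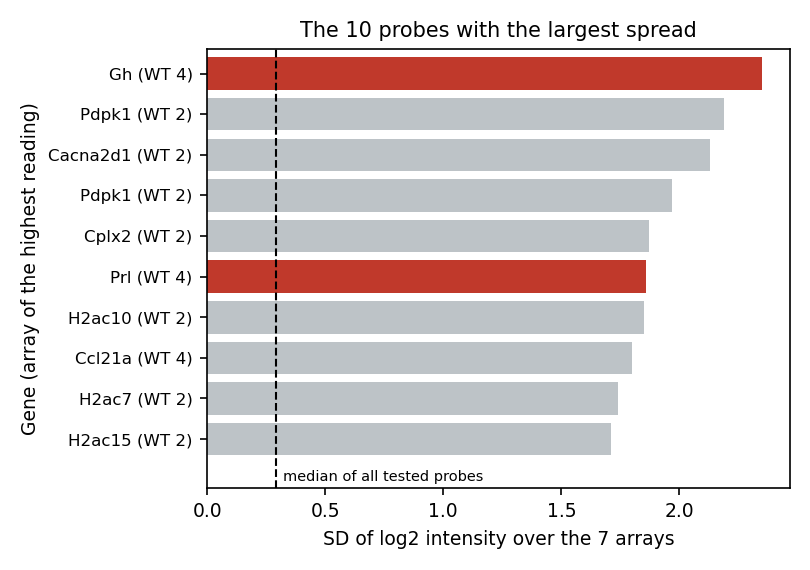
Standard deviation of log2 intensity over the 7 arrays for the 10 tested probes with the largest values, with the array of the highest reading in brackets. Gh (2.35) and Prl (1.86), in red, are highest on wild-type array 4, and the dashed line marks the median of all 12833 tested probes at 0.29.

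Gh and Prl varied together from brain to brain. Over the 7 arrays Pearson's r of the log2 readings was 0.96 and Spearman's rho 0.96, and on the linear scale r was 0.98. The points share their arrays, and the arrays at the floor form a single point. Without those 2 arrays, which were farthest from the Gh median, r was 0.94 and rho 0.90 over 5 arrays. Without wild-type array 4, r was 0.99 over 6 arrays. Taken around the group means, so that the genotype no longer contributes, r was 0.95 over 7 arrays.

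The pair did not move in strict proportion. The log2 ratio of the Gh reading to the Prl reading was 1.36 and 0.87 on knockout arrays 1 and 3, against 2.12, 1.52 and 0.85 on wild-type arrays 1, 2 and 4. It spanned 1.27 on the log2 scale with an SD of 0.52 (n = 5), while on the same 5 arrays Gh had an SD of 1.45 and Prl one of 1.54. The ratio was highest on wild-type array 1 and lowest on wild-type array 4, and the knockout values lay inside the wild-type range. Only its change between arrays is readable, since the probes differ in brightness.

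**Figure D3:**
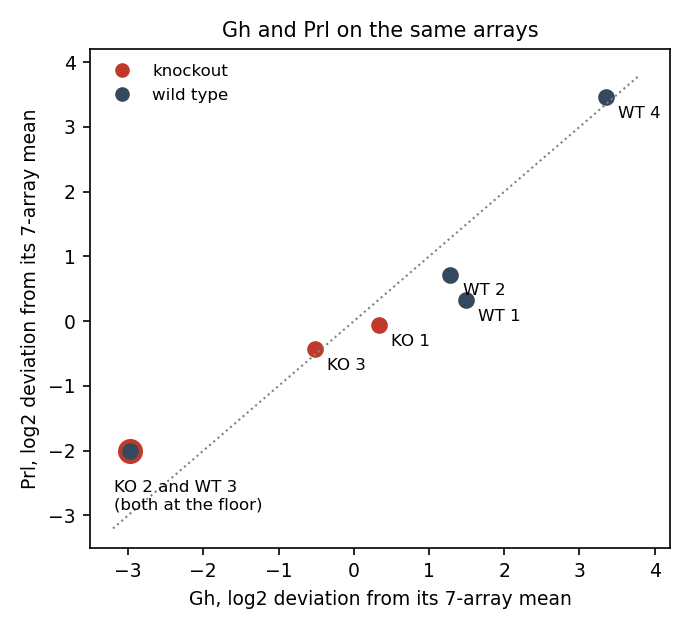
Log2 deviation of Prl (vertical) against that of Gh (horizontal) from each probe's mean over the 7 arrays, with 1 point per mouse, knockout in red and wild type in dark blue. The dotted line marks equal deviations. The points run from the shared position of knockout array 2 and wild-type array 3 at -2.97 for Gh and -2.01 for Prl to wild-type array 4 at 3.35 and 3.46.

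The promoter of Prl is shown because Pou1f1 is known to bind it, and because Gh, whose readings moved with those of Prl, is a target of the same factor. The window is the RefSeq one for Prl at chr13:27057320-27057619 (GRCm38.p6, plus strand), 250 bases before to 50 after the start of the gene. Capitals mark matches to TATNCAT, a short form of the sequence that Pou1f1 prefers, and to TATAAA, the TATA box.
Prl: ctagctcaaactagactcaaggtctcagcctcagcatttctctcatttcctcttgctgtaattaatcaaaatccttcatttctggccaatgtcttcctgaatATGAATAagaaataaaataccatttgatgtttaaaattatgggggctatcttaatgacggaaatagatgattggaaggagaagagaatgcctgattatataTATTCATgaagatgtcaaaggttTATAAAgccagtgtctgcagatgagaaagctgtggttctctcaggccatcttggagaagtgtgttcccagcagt
TATNCAT was searched on both strands and occurred 2 times, at bases 103 to 109 of the window on the opposite strand and at bases 204 to 210 on the strand of transcription. TATAAA was searched on the strand of transcription only and occurred at bases 227 to 232, and the matches did not overlap. Of 32851 RefSeq promoter windows of this length, 8.84% held TATNCAT at least once, 1.5% held it 2 or more times and 8.32% held TATAAA. A match describes letters and shows no binding.

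Other pituitary genes mostly stayed below the floor on every array, which does not show that their transcripts were absent. Of 15 genes with a probe on a list of pituitary hormone, receptor and transcription factor genes, 14 stayed below the floor on all 7 arrays. Their intensities were -4.76 to 15.5. These included Tshb, Lhb and Fshb, the hormone-specific subunits of thyrotropin and the gonadotropins, the receptors Ghrhr and Gnrhr, and the transcription factors Lhx3, Lhx4, Hesx1, Tbx19, Pitx1, Pax7, Foxl2, Neurod4 and Six6. Pou1f1 had no annotated probe here. The summed intensity of the 15 genes ran from 10.9 on array 2 to 37.2 on array 1 among the knockout arrays. Among the wild-type arrays it ran from 9.95 on array 3 to 74.9 on array 4. The lowest sum of each group fell on the array at background for Gh and Prl. The highest of all fell on wild-type array 4, where both were brightest, and Cga gave 30.1 of it. These sums are made of readings near or under the floor, and their likeness to the pair was not tested.

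Cga, the alpha subunit shared by thyrotropin and the gonadotropins, was the exception. It read 12.2, 0.955 and 7.44 on knockout arrays 1, 2 and 3, against 6.79, 32.8, -3.47 and 30.1 on wild-type arrays 1, 2, 3 and 4. It was above the floor only on wild-type arrays 2 and 4, both of which also had Gh and Prl above it, and stayed under it on wild-type array 1, where Gh read 351. With 2 arrays above the floor it was not tested.

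Pomc, the precursor of corticotropin in the pituitary and a transcript of hypothalamic neurons, shared the layout of the pair only in part. It read 312, 4.46 and 14.8 on knockout arrays 1, 2 and 3, against 5.72, 20.4, 2.63 and 15.4 on wild-type arrays 1, 2, 3 and 4. The high reading came from knockout array 1 alone, and on wild-type array 4, where Gh and Prl were highest, Pomc was under the floor. It too had 2 arrays above the floor and was not tested.

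Of 10 measured genes made in both the pituitary and the brain, 7 were tested, and at the brightest probe of each the mean was higher in knockout, the opposite sign to Gh and Prl. Dimmer probes differed from this, at -0.13 (SE 0.26) and -0.82 (SE 0.27) for Chga and -0.15 (SE 0.14) for Crhr1. The steroidogenic factor gene Nr5a1 and the prohormone convertase gene Pcsk1 were below the floor on all arrays. With limma, at the brightest probe of each, 0 of the 7 passed an adjusted p of 0.05, as did 0 of 12833 tested probes (0.0%). At these brightest probes 0 had an unadjusted limma p under 0.05, against 4.2% of all tested probes (2.21% higher and 1.99% lower in knockout). The median log2 difference of the 7 was 0.307, beside 0.02 over all tested probes. At the brightest probes the largest was for the corticotropin-releasing hormone receptor Crhr1, at 0.70 (SE 0.39, limma adjusted p = 0.754), followed by the delta-like protein Dlk1 at 0.66 (SE 0.56). The dimmer Chga probe at -0.82 was larger in size than either. The transcription factors Gata2 and Isl1 differed by 0.39 (SE 0.22) and 0.16 (SE 0.19), and the granule proteins Scg2, Chgb and Chga by 0.31 (SE 0.19), 0.19 (SE 0.25) and 0.10 (SE 0.27).

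Wild-type array 2 was far below the others for this list. Its mean log2 deviation was 0.31, 0.20 and 0.09 on knockout arrays 1, 2 and 3, against 0.19, -0.88, -0.09 and 0.16 on wild-type arrays 1, 2, 3 and 4. The median difference came to 0.169 without wild-type array 2, and to 0.003 with wild-type array 3 left out as well. Crhr1 came to 0.33 without wild-type array 2 and to 0.23 without both, while Gata2 came to 0.21 and 0.10, Scg2 to 0.17 and 0.13, and Dlk1 to 0.10 and -0.14. Chgb and Chga turned negative without wild-type array 2, at -0.04 and -0.15. Dlk1 read 102, 70.7 and 73.6 in knockout brains, against 81.3, 13.8, 54.8 and 97.3 in wild-type brains. Knockout array 2, at background for Gh and Prl, had Dlk1 at a level like that of its group. The posterior pituitary genes Rax, Col25a1 and Scn7a were below the floor on all 7 arrays.

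**Figure D4:**
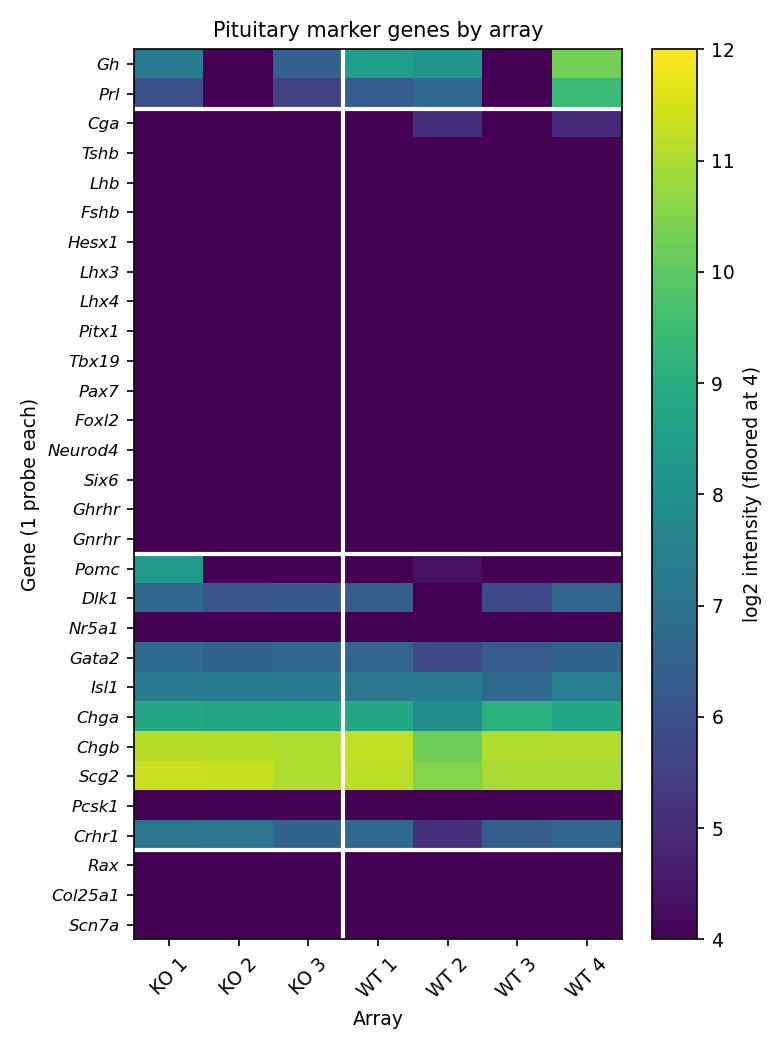
Floored log2 intensity (colour) by gene on the 3 knockout and 4 wild-type arrays. From top to bottom, with white lines between, are Gh and Prl, then 15 pituitary hormone, receptor and transcription factor genes. Below them are 10 genes of pituitary and brain and 3 posterior pituitary genes. Among the 15 genes Cga alone leaves the floor, on wild-type arrays 2 and 4. Of the genes of pituitary and brain, Pomc stands out on knockout array 1.

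Markers of the hypothalamus, choroid plexus, meninges and vessels, blood and pineal gland were read on the same arrays. The hypothalamic gene Pmch, which encodes melanin-concentrating hormone, read 1111, 1193 and 777 in knockout brains, against 821, 298, 536 and 1411 in wild-type brains. It was highest on wild-type array 4, as Gh and Prl were, and next highest on knockout array 2, where both were at background. The summed intensity of 8 hypothalamic markers was 2675 to 3035 in knockout and 1601 to 3284 in wild type. For 7 choroid plexus markers, led by the transthyretin gene Ttr, it was 8983 to 10917 in knockout and 7242 to 11273 in wild type. For 9 genes of meninges and vessels the sum was 3509 to 4222 in knockout and 3962 to 4620.2 in wild type. Most of that sum came from Ptgds, which read 2383 to 3146 in knockout and 2926 to 3614 in wild type. Of the 7 tested genes of this list 5 had a higher and 2 a lower knockout mean, and the list median was 0.065. Ptgds was among the lower ones. For 4 blood genes the sum was 9119.5 to 13184 in knockout and 10403 to 27591 in wild type, with the highest sum on wild-type array 2. The pineal genes Tph1, Aanat, Crx and Gngt1 were below the floor on all arrays, and the pineal and retinal gene Sag was above it on all of them. Of 7 tested choroid plexus genes and 4 tested blood genes, 2 in each list had an unadjusted limma p under 0.05, beside 4.2% of all tested probes. The groups did not overlap for these same genes, beside 7.39% of all tested probes. The folate receptor gene Folr1 and the chloride channel gene Clic6 were lower in knockout, with differences of -1.35 (SE 0.30) and -0.30 (SE 0.13). Folr1 read 22.6, 15.2 and 16.4 in knockout brains, near the floor of 16. The choroid plexus list as a whole was mixed. Of its 7 tested genes 5 had a lower and 2 a higher knockout mean, and the list median was -0.068. The neutrophil genes S100a9 and S100a8 were higher in knockout, with differences of 1.29 (SE 0.25) and 0.88 (SE 0.30). The limma adjusted p was 0.754 for Folr1, Clic6, S100a9 and S100a8 alike. The erythroid genes Alas2 and Hba-a1 differed by -1.07 (SE 0.50) and -0.58 (SE 0.32), and both were highest on wild-type array 2. The part of these tissues in the readings of Gh and Prl was not tested.

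Upstream of the hormones, 13 of 24 hypothalamic factors and receptors with a probe were tested. With limma 0 passed over all probes, 11 had a higher and 2 a lower mean in knockout, and the median log2 difference was 0.304. Over all tested probes 46.9% were lower in knockout and the median was 0.02. The mean log2 deviation of these 13 genes was 0.25, 0.24 and 0.16 on knockout arrays 1, 2 and 3, against 0.14, -0.62, -0.31 and 0.15 on wild-type arrays 1, 2, 3 and 4, so wild-type arrays 2 and 3 stood below the rest. Ghrh stayed near the floor, at 15.0, 18.8 and 22.6 in knockout brains, against 17.3, 13.8, 4.70 and 15.3 in wild-type brains. Sst was bright, at 3132, 3055 and 2799.7 in knockout brains, against 2906, 1704, 2360 and 3185 in wild-type brains. The Sst difference was 0.28 (SE 0.22, limma adjusted p = 0.754), with the lowest readings on wild-type arrays 2 and 3.

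Th, the enzyme that limits dopamine synthesis, read 174, 104 and 154 in knockout brains, against 149, 67.1, 141 and 98.8 in wild-type brains, which overlapped. Its difference was 0.37 (SE 0.31, limma adjusted p = 0.754). The dopamine receptor gene Drd2, through which dopamine restrains lactotrophs, differed by -0.21 (SE 0.18, limma adjusted p = 0.755). Galanin (Gal), a neuropeptide also made by lactotrophs, was the only tested axis gene with an unadjusted limma p under 0.05, and its adjusted p was 0.754. That is 1 of 38 tested axis genes, beside 4.2% of all tested probes. Gal read 201, 178 and 159 in knockout brains, against 135, 156, 105 and 142 in wild-type brains, and differed by 0.42 (SE 0.18). Its groups did not overlap (159 against 156 at the closest), as for 7.39% of all tested probes. Vasopressin (Avp) differed by 1.26 (SE 0.60), with a wild-type reading of 6.01 on array 2 and 63.0 to 117 on the other wild-type arrays. The Avp difference was 0.67 without wild-type array 2 and 0.46 without wild-type arrays 2 and 3.

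Downstream of the receptors, 13 of 16 signalling genes with a probe were tested and 0 passed with limma, with 7 higher and 6 lower in knockout and a median of 0.007. Prlr, the prolactin receptor gene, had no annotated probe here. The growth hormone receptor gene Ghr read 118, 155 and 153 in knockout brains, against 130.3, 114, 54.4 and 144 in wild-type brains, a difference of 0.44 (SE 0.33, limma adjusted p = 0.754). Jak2, the kinase of both receptors, differed by 0.46 (SE 0.20) and Grb10, an adaptor that damps insulin and growth factor receptors, by 0.32 (SE 0.21). Irs2 and Stat3 differed by -0.62 (SE 0.64) and -0.35 (SE 0.51), and both were highest on wild-type array 2, at 979 and 641. Without that array Irs2 came to -0.07, Stat3 to 0.12 and Grb10 to 0.19. Without wild-type arrays 2 and 3 Jak2 came to 0.18, Grb10 to 0.04, Irs2 to 0.35 and Stat3 to 0.37. Dimmer Stat3 probes differed by -0.22 (SE 0.38) and 0.18 (SE 0.25) over all arrays. Stat5a, near the floor, differed by -0.02 (SE 0.16), and Stat5b was below the floor on all 7 arrays.

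Cish and Socs2, inhibitors of cytokine signalling whose transcription growth hormone is known to raise, were not highest on the array richest in Gh. Socs2 read 449, 471 and 616 in knockout brains, against 472, 971, 551 and 444 in wild-type brains. Its reading on wild-type array 4, where Gh was 1275, was the lowest of the 7. Cish read 226, 174 and 199 in knockout brains, against 229, 103, 198 and 216 in wild-type brains. The difference between genotypes was -0.19 (SE 0.28, limma adjusted p = 0.826) for Socs2 and 0.15 (SE 0.28, limma adjusted p = 0.861) for Cish.

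In the insulin-like growth factor branch 10 of 13 genes were tested, 5 higher and 5 lower in knockout, with a median of -0.007 and 0 past the threshold with limma. Igf1 read 20.1, 27.1 and 21.9 in knockout brains, against 29.7, 22.2, 19.5 and 17.6 in wild-type brains, and was lowest on wild-type array 4. Igf1r, its receptor gene, differed by -0.57 (SE 0.33) and the binding protein genes Igfbp7 and Igfbp6 by 0.41 (SE 0.24) and -0.22 (SE 0.27). Igf1r came to -0.33 and Igfbp7 to 0.27 without wild-type array 2, and to -0.11 and 0.05 without wild-type arrays 2 and 3, where Igfbp6 came to 0.04. Igf2 differed by 0.08 (SE 0.17, limma adjusted p = 0.878), and by -0.01 without wild-type array 2. Over the axis as a whole 38 genes were tested, 24 higher and 14 lower in knockout, while 46.9% of all tested probes were lower. Of the 38 genes 1 (2.63%), Gal, had groups that did not overlap, beside 7.39% of all tested probes. The median difference over the axis was 0.119 with all arrays, 0.063 without wild-type array 2 and 0.011 without wild-type arrays 2 and 3.

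**Figure D5:**
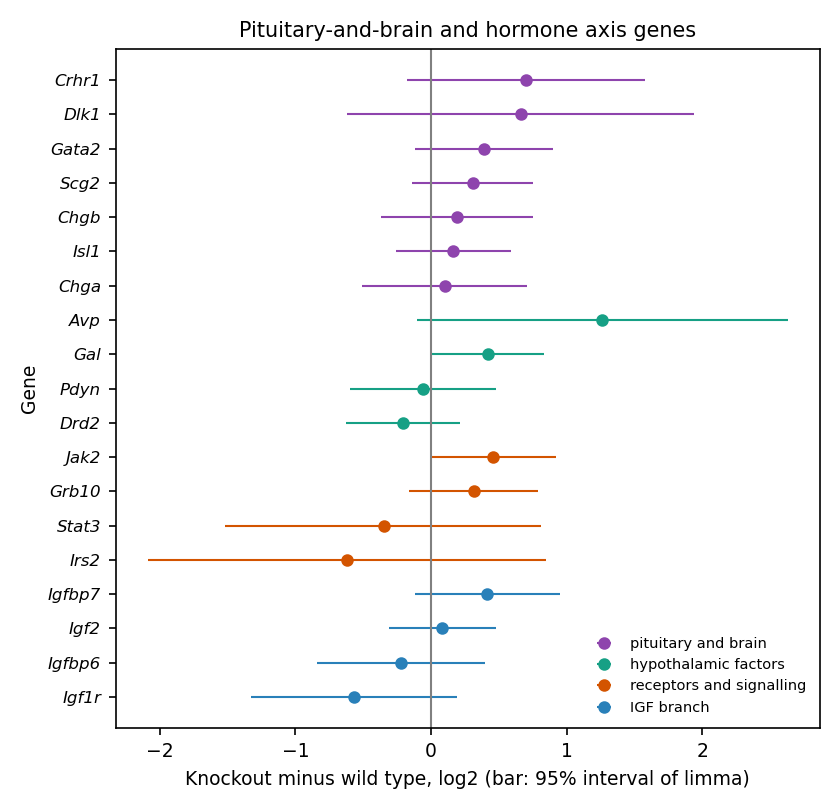
Knockout minus wild-type difference in log2 intensity, with the 95% interval of limma, for the tested genes of pituitary and brain and for up to 2 genes in each direction from the hypothalamic, receptor and growth factor lists. All intervals include 0 except that of Gal, and the adjusted p of every gene shown is 0.754 or higher.

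The mouse carries a large family of prolactin-related genes that are active mainly in the placenta. Of 22 such genes with a probe, 20 were below the floor on all 7 arrays, the lowest reading being -8.32. The proliferin gene Prl2c3 read 23.8, 15.5 and 30.5 on knockout arrays 1, 2 and 3, against 22.6, 13.1, 24.6 and 12.1 on wild-type arrays 1, 2, 3 and 4. Its relative Prl2c4 read 16.6, 4.66 and 19.5 on knockout arrays 1, 2 and 3, against 12.5, 7.27, 28.1 and 12.9 on wild-type arrays 1, 2, 3 and 4. Both were under the floor on wild-type array 4, where Prl was highest, and above it on wild-type array 3, where Prl was at background. The difference was 0.22 (SE 0.26, limma adjusted p = 0.788) for Prl2c3 and -0.09 (SE 0.23, limma adjusted p = 0.907) for Prl2c4. Proliferin genes are near copies of each other, so a probe may read more than 1 of them.

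Among tested probes, those that tracked the pair were few and had a small spread. Pituitary genes that were not tested, Cga and Pomc among them, could not appear here. Against the mean of the centred Gh and Prl profiles, 6 of the other 12831 tested probes (0.0468%) reached an r of 0.9 over the 7 arrays and 4 (0.0312%) had -0.9 or below. Of the 157 other probes with an SD of at least 1, 0 reached 0.9. The 10 genes most like the pair were Etfa (r = 0.96), a subunit of the mitochondrial electron transfer flavoprotein, Kin (0.96), a nuclear DNA-binding protein, Avpr1a (0.93), a vasopressin receptor, Kl (0.91), the ageing-related protein klotho of the choroid plexus, Rtn4 (0.91), the myelin-associated inhibitor Nogo, Mrps15 (0.90), a mitochondrial ribosomal protein, Eya3 (0.89), Shroom1 (0.89), Tmtc4 (0.88) and Qsox1 (0.87).

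These genes moved little. Etfa read 298, 282 and 315 on knockout arrays 1, 2 and 3, against 334, 332, 260.2 and 384 on wild-type arrays 1, 2, 3 and 4. Its order over the arrays above the Gh floor was that of Gh, except that knockout arrays 1 and 3 changed places, but its SD was 0.18 on the log2 scale against 2.35 for Gh. Over the 10 genes the SD ran from 0.12 to 0.31. Further probes of the same genes were less like the pair, with r of 0.62 and 0.69 for Rtn4, 0.46, 0.00 and 0.49 for Etfa and -0.27 for Eya3. The 5 genes with the lowest r were Brpf1 (-0.98), Sh3tc1 (-0.98), Eci1 (-0.96), Spsb3 (-0.94) and Patz1 (-0.90), with SDs of 0.08 to 0.32.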

How the data were processed

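Brain RNA of 3 knockout and 4 wild-type mice was measured, 1 array per mouse. The deposited values are normalized intensities on a linear scale made with GenomeStudio 2011.1, per the submitters' processing notes, and the way they were normalized was not given in the sources used here. Background subtraction and scaling between arrays were inferred only from the values, which include negative readings and have array medians of 14.56 to 14.62. A second table was not used here, because its 7 signal columns match no sample label. Gene names come from the platform annotation, which gave 1 symbol to 23978 probes, none to 1719 and several to 0.

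Intensities under 16 were set to 16 and log2 was taken, which understates differences of dim probes. Probes above 16 on at least 3 arrays entered a linear model with genotype as its only term, fitted with limma (version 3.58.1, under R 4.3.3) and moderated by eBayes, with Benjamini-Hochberg adjustment over all tested probes and a threshold of 0.05. The fit was tested on simulated data. Differences are knockout minus wild type. Where several probes read a gene, the one with the highest mean intensity stood for it. The rule for named genes took Gh and Prl, the measured members of the pituitary lists, up to 2 genes per direction with the smallest unadjusted p in the other lists (of which those that bear on a comparison are printed), and the 10 genes most and 5 least alike the pair. Ghrh, Sst, Th, Ghr, Stat5a, Stat5b, Socs2, Cish and Igf1 were added after their values were seen, for their roles in the axis. Members and lists were chosen with earlier results of these data known. Figures were drawn with matplotlib 3.10.9. Alternatives were the floor, the filter, quantile normalization, array weights, a replicate block, the mean over probes and leaving out arrays. The number of arrays limits the precision.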

Additional observations from a re-analysis of the deposited data

Results flagged for a closer look

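In 3 of the 64 wild-type groups examined, 1 of the 4 arrays lay far from the others, and chance alone marks about 1 in 20. The granule protein gene Chgb had a log2 reading of 10.24 on wild-type array 2, against 11.09 to 11.26 on arrays 1, 3 and 4. The collagen gene Col1a1 lay at the floor of 4.0 on wild-type array 2, against 5.07 to 5.17. The proliferin gene Prl2c4 read 4.81 on wild-type array 3 and lay at the floor of 4.0 on the other wild-type arrays. With such ties a single array above the floor is always marked, so the rate of 1 in 20 does not apply there. Gh and Prl were not marked.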

How the results depend on the processing

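The log2 difference of Gh kept its negative sign under 16 alternatives (-3.47 to -0.88), as did that of Prl (-2.73 to -0.52), and r between them stayed at 0.92 to 0.99 over 13. With each array left out in turn, Gh gave -3.09 to -0.88 and Prl -2.34 to -0.52. The requirement of a reading above the floor on all 7 arrays removes both probes. The block by replicate number, which drops wild-type array 4, gave -0.99 for Gh and -0.52 for Prl, as leaving out that array alone did, and changed no call. Same-numbered arrays deviated with correlations of 0.08, -0.132 and -0.037, so the numbers were not taken as pairs. With array weights 28 probes passed instead of 0, and the cause was not tested. The weights were 6.71, 0.1045 and 0.3354 for wild-type arrays 1, 2 and 3 and 0.8554 to 2.525 for the rest. The brightest Pde4dip probe passed in that fit, at -0.68 (limma adjusted p = 0.0437). The count at an unadjusted p under 0.05 was 539, against 2649 with array weights, 1535 with the replicate block and 157 to 1626 with single arrays left out. No pituitary or axis gene passed under any alternative. The median difference of pituitary genes was 0.087 with array weights, 0.169 without wild-type array 2, 0.003 without wild-type arrays 2 and 3, and 0.0 with no filter. Signs turned in 26 of 347 alternative values of 21 named genes, for causes not tested. With array weights the values were Chga -0.08, Chgb -0.10, Dlk1 -0.01, Drd2 0.02, Igf2 -0.16, Prl2c3 -0.06, Prl2c4 0.05 and Stat3 0.04. Without wild-type arrays 2 and 3 they were Chga -0.05, Chgb -0.07, Dlk1 -0.14, Drd2 0.000737, Igf2 -0.11, Igfbp6 0.04, Irs2 0.35, Pdyn 0.11 and Stat3 0.37. With the mean over probes Chga gave -0.29 and Pdyn 0.09. With single arrays left out the ranges were -0.15 to 0.25 for Chga, -0.04 to 0.30 for Chgb, -0.01 to 0.18 for Igf2, -0.34 to 0.04 for Igfbp6, -0.18 to 0.14 for Pdyn and -0.68 to 0.12 for Stat3.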
